A study of Mus with 4 samples.

Results

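In 322 genes of interscapular brown adipose tissue (iBAT), *Wtap* flox/flox and *Wtap*-BKO mice each had a single listed m6A peak, and the 2 peaks lay at different places. These genes were 13.1% (95% Wilson interval 11.8 to 14.5%) of the 2465 genes that had exactly 1 peak in each genotype, and 4.02% of the 8014 genes with a peak in both. They were chosen by the measured peak positions: a gene was called moved when its 2 peaks shared no exonic base on the same strand, and kept when they shared at least 1, which left 2143 kept genes. In 210 of the 322 moved genes the *Wtap*-BKO peak lay nearer the 5′ end, with a median distance of 6892 bp between nearest ends. Examples were *Cst3*, *Higd2a*, *Mrps34* and *Coa7*, whose *Wtap* flox/flox peaks were centred in the last part of the gene and whose *Wtap*-BKO peaks were centred at its start.

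N6-methyladenosine (m6A) is a methylated adenosine within mRNA, written by a nuclear complex in which METTL3 carries the catalytic activity, METTL14 helps to bind RNA and WTAP anchors the complex and its accessory proteins. In most mRNAs the mark is densest near the stop codon and in the 3′ untranslated region, and reader proteins that bind it influence splicing, translation and decay. Antibodies against m6A also bind the related cap-adjacent mark m6Am, so peaks at the start of a transcript do not separate both marks.

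The data were 4 sequenced samples of iBAT from 8-week-old C57BL/6 mice on normal chow, an m6A immunoprecipitation (IP) and an input of each genotype, with 150 bp paired reads. Control mice carried *Wtap* flox/flox alone. *Wtap*-BKO mice carried *Wtap* flox/flox together with *Ucp1-iCre*, which deletes *Wtap* in cells that express *Ucp1*, so the other cell types of the fat pad keep the gene. Each sample was pooled from 8 mice and no sample was repeated, so every value below describes 1 pool against 1 pool, no test between genotypes was possible, and intervals cover counting error only.

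The *Wtap* flox/flox list held 18400 peaks in 9732 genes and the *Wtap*-BKO list 18693 peaks in 9713 genes, and 11431 genes had a peak in either. Sequencing depth is unknown, so a place without a peak is one where no peak reached the threshold of the list. Of 14 brown adipocyte markers, 14 had a *Wtap* flox/flox peak and 13 a *Wtap*-BKO peak. Markers of some other cell types had a peak more often in *Wtap*-BKO: 3 of 8 skeletal muscle markers had a peak among controls and 7 of 8 after deletion, with 5 and 7 of 8 macrophage markers, and 0 and 2 of 7 lymphocyte markers. The counts were equal for fibroblast markers (6 of 6 in each list) and endothelial markers (4 of 4 in each list). In bulk tissue fewer cells of a type and less RNA per cell cannot be told apart, and the part of cell makeup in the shifts below was not tested. None of the moved genes was among these markers. *Wtap* itself had 4 peaks in each list and was no member, and a peak list gives no RNA level by which to check its deletion.

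The 322 moved genes lay on 21 chromosomes, with 161 on each strand. A symbol other than a Gm or Rik name was given for 288 of them. In each pair both peaks lay on the same chromosome and strand. Among the 294 moved genes that a RefSeq gene table of the build GRCm38.p6 named, 293 were protein coding. The rest had no entry matched by symbol and chromosome, and their class is not given here.

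The size of the shift ranged widely. The distance between the nearest ends of both peaks, counted on the genome with introns included, had a median of 5314 bp (quartiles 826 and 18687 bp) and ran from 28 to 294098 bp. In 237 genes (73.6%) it was at least 1000 bp and in 125 (38.8%) at least 10000 bp. Kept pairs had centres a median of 30 bp apart (quartiles 15 and 60 bp). The plot of signed shifts shows both groups, whose difference in size follows largely from the rule, since kept pairs had to share exonic bases.

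**Figure D1:**
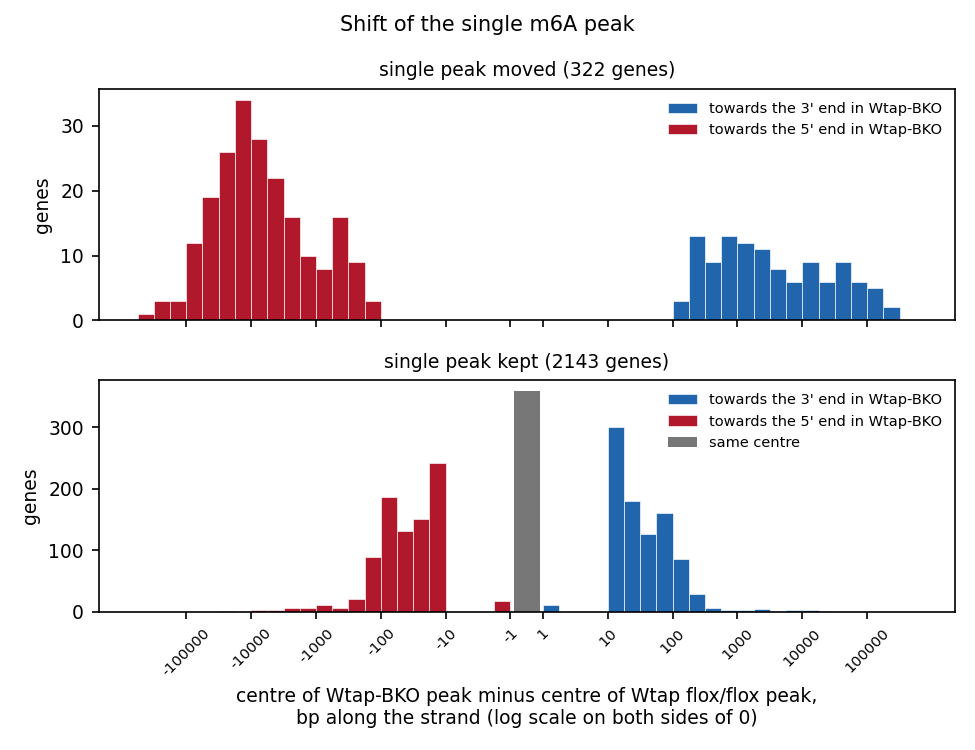
Number of genes (y axis) by the distance in bp from the centre of the *Wtap* flox/flox peak to the centre of the *Wtap*-BKO peak along the strand (x axis, log scale on both sides of 0, negative towards the 5′ end), for 322 moved genes above and 2143 kept genes below. Moved pairs lay mostly on the side of the 5′ end with a median centre distance of 6719 bp, whereas kept pairs lay mostly within 60 bp of 0.

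Since the rule had a threshold, values on both sides of it are given. On the moved side, 8 pairs lay at most 29 bp apart and 23 at most 100 bp. The 4 shortest named shifts, in *Arsg* (a lysosomal sulfatase), *Gnai1* (an inhibitory G protein subunit), *Gstm2* (a glutathione transferase) and *Nifk* (a nucleolar protein), all measured 29 bp. On the kept side, 12 pairs shared a single base, among them *Bcl6*, *Sox10*, *Mylpf*, *Nrxn2* and *Mrpl58*, and 17 shared at most 30 bases. These borderline pairs were few: 2090 of the kept pairs (97.5%) shared at least 50% of the shorter peak, with a median of 181 shared bases.

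The direction of the shift was unequal. The *Wtap*-BKO peak lay towards the 5′ end in 210 of 322 moved genes (65.2%, interval 59.9 to 70.2%) and towards the 3′ end in 112 (34.8%). Over all single-peak genes whose centres differed, kept and moved, 51.2% had the *Wtap*-BKO centre towards the 5′ end. Among kept genes it was 869 of 1784 (48.7%, 46.4 to 51.0%), and among kept genes with centres at least 50 bp apart 329 of 627 (52.5%, 48.6 to 56.4%). The interval of the moved genes did not overlap either interval of the kept genes. The share was alike on both strands, with 64.6% on the plus and 65.8% on the minus strand. It was 67.0% among genes with a symbol and 17 of 34 among Gm, Rik and unnamed genes, with overlapping intervals (61.4 to 72.2% and 34.1 to 65.9%).

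Short shifts went both ways and long shifts mostly towards the 5′ end. Among pairs less than 200 bp apart, 17 of 36 (47.2%, 32.0 to 63.0%) went towards the 5′ end, and among pairs 200 to under 1000 bp apart 25 of 49 (51.0%, 37.5 to 64.4%). Among pairs 5000 to under 20000 bp apart it was 68 of 86 (79.1%, 69.3 to 86.3%). The last interval did not overlap those of both short classes. Pairs 20000 bp or more apart gave 52 of 79 (65.8%, 54.8 to 75.3%). Shifts towards the 5′ end also had the longer median, 6892 bp (quartiles 1624 and 19362 bp) against 1787 bp (409 and 16060 bp) towards the 3′ end.

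Pairs in which both peaks were strong went towards the 5′ end more often than all moved pairs. Strength is given here as the log10 of the false discovery rate (FDR) in the lists, where a more negative value is a stronger peak. With both FDRs under 1e-03, 106 of 138 genes (76.8%, 69.1 to 83.1%) went towards the 5′ end, and with both under 1e-05, 43 of 48 (89.6%, 77.8 to 95.5%). Under 1e-10 only 12 pairs were left, and 10 of them (83.3%, 55.2 to 95.3%) went that way. The 48 strong moved pairs were 3.73% of the 1288 single-peak genes whose peaks both passed 1e-05, a lower share than the 13.1% over all single-peak genes. The 5 strong pairs that went towards the 3′ end were *Vegfb*, *Lamp1*, *Osgin2*, *Alg12* and *Mapkap1*.

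**Figure D2:**
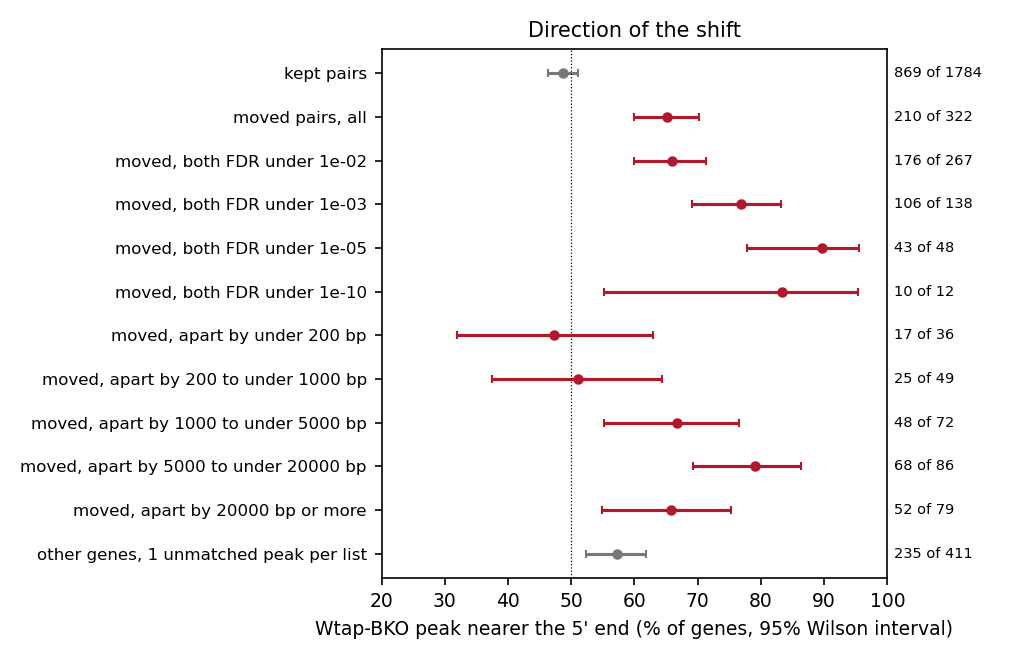
Share of genes (x axis, percent) whose *Wtap*-BKO peak lay nearer the 5′ end, with its 95% Wilson interval and the counts behind it, for kept pairs, moved pairs by FDR and by distance, and other genes with 1 unmatched peak in each list (y axis). The share was 48.7% in kept pairs, 65.2% in all moved pairs and 89.6% in moved pairs with both FDRs under 1e-05, and lay near 50% for pairs under 1000 bp apart.

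Genes with more peaks gave a comparison that the rule did not choose. Of genes that had exactly 1 unmatched peak in each list but further peaks as well, 235 of 411 (57.2%, 52.3 to 61.9%) had the unmatched *Wtap*-BKO peak towards the 5′ end. With both FDRs under 1e-05 it was 36 of 54 (66.7%, 53.4 to 77.8%). The direction was that of the moved genes. The interval over all such genes overlapped that of all moved genes, and the interval under 1e-05 met that of the strong moved pairs at 77.8%.

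The position within the gene was measured for 285 moved and 1745 kept genes with both peak centres inside the RefSeq gene, allowing 100 bp beyond its ends. In moved genes the *Wtap* flox/flox peak lay at a median of 92.7% of the gene span from the 5′ end (quartiles 63.9 and 97.7%), close to the 89.9% of kept genes. The *Wtap*-BKO peak lay at a median of 47.0% (quartiles 2.90 and 88.5%), against 89.8% in kept genes. By the medians, the *Wtap* flox/flox peaks of both groups lay towards the 3′ end, and the *Wtap*-BKO peaks of moved genes were spread over the gene. In 120 moved genes (42.1%) the peak passed from the side of the 3′ end to the side of the 5′ end, and in 30 (10.5%) the other way. Among kept genes, whose peaks had to overlap, these counts were 7 and 6.

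The start of the gene held many of the *Wtap*-BKO peaks. Their centres lay within 250 bp of the 5′ end in 75 of 285 moved genes (26.3%, 21.5 to 31.7%), against 14 (4.91%, 2.95 to 8.08%) of the *Wtap* flox/flox peaks. In kept genes it was 194 of 1745 (11.1%, 9.73 to 12.7%) in *Wtap* flox/flox and 188 (10.8%, 9.40 to 12.3%) in *Wtap*-BKO. Against kept peaks of the same list, moved peaks thus lay at the start less often in *Wtap* flox/flox and more often in *Wtap*-BKO, with intervals that did not overlap. Among the 46 strong moved pairs with both positions, 23 *Wtap*-BKO peaks (interval 36.1 to 63.9%) lay within 250 bp of the 5′ end and 2 *Wtap* flox/flox peaks did. The medians of these strong pairs were 94.4% of the span for *Wtap* flox/flox and 8.49% for *Wtap*-BKO, and 30 of 46 passed from the side of the 3′ end to the side of the 5′ end while 1 went the other way. Moved genes were also longer, with a median span of 25939 bp against 19676 bp in kept genes.

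**Figure D3:**
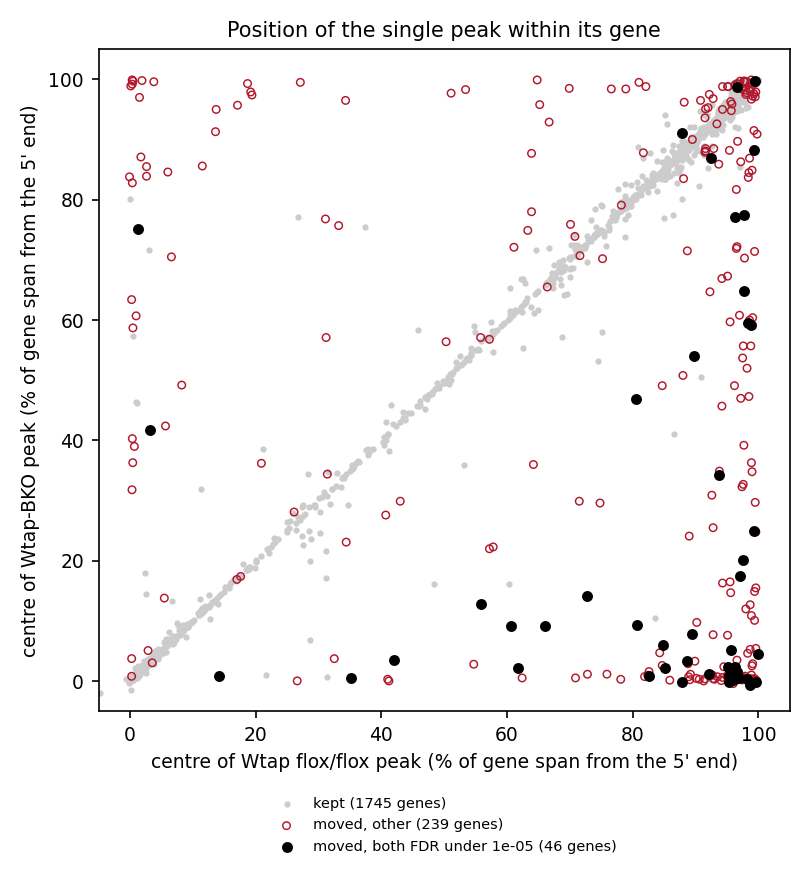
Centre of the *Wtap*-BKO peak (y axis) against the centre of the *Wtap* flox/flox peak (x axis), each as percent of the gene span from the 5′ end, for 1745 kept genes (grey), 239 moved genes (open circles) and 46 moved genes with both FDRs under 1e-05 (filled). Kept genes lay on the diagonal, and many moved genes gathered in the lower right corner, with a *Wtap* flox/flox peak near the 3′ end and a *Wtap*-BKO peak near the 5′ end.

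Ends and interior were set apart in the 272 moved genes with a span of at least 3000 bp, with an end defined as 1000 bp. *Wtap* flox/flox peaks lay at the 3′ end in 98 genes (36.0%, 30.6 to 41.9%), near the 33.3% of kept genes, and *Wtap*-BKO peaks in 38 (14%, 10.4 to 18.6%) against 33.0% of kept genes. At the 5′ end the counts were 22 (8.09%) for *Wtap* flox/flox and 82 (30.1%) for *Wtap*-BKO peaks, against 13.9% and 13.5% in kept genes. The most frequent passage was from one interior place to another, in 93 genes. A passage from the 3′ end to the interior occurred in 46 genes, from the 3′ end to the 5′ end in 41 and from the interior to the 5′ end in 38. The reverse passages were fewer, with 21 genes from the interior to the 3′ end, 13 from the 5′ end to the interior and 6 from the 5′ end to the 3′ end.

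The same difference at the 5′ end appeared in genes that had a peak in 1 genotype alone, which the rule left out. Of single peaks in genes with no peak in the other list and a span of at least 3000 bp, 14.1% in *Wtap*-BKO (133 of 946, 12 to 16.4%) lay within 250 bp of the 5′ end and 4.94% in *Wtap* flox/flox (48 of 972, 3.74 to 6.49%). With an FDR under 1e-05 the shares were 16.1% (38 of 236, 12 to 21.3%) and 1.89% (8 of 424, 0.959 to 3.68%). In both comparisons the intervals did not overlap.

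By FDR, moved peaks were weaker than kept peaks in both lists. The median log10 FDR of moved genes was -5.0 for *Wtap* flox/flox and -3.34 for *Wtap*-BKO, against -10.9 and -9.39 in kept genes. Ranked within its own list, the median moved peak stood at the percentile 36.7 for *Wtap* flox/flox and 24.6 for *Wtap*-BKO, and the median kept peak at 58.7 and 62.0. The share of moved genes fell across 5 equal classes of the single-peak genes, from the weakest to the strongest peak, from 24.1% to 5.48% by the *Wtap* flox/flox peak and from 32.0% to 0.609% by the *Wtap*-BKO peak. Only 3 of the 493 genes with the strongest *Wtap*-BKO peaks had moved. How far a weak peak that passed in 1 list and missed the threshold in the other contributed to the moved genes was not tested.

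**Figure D4:**
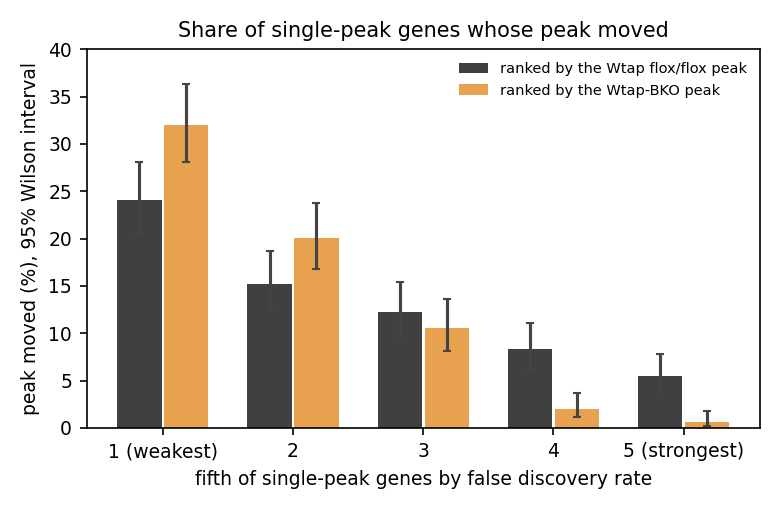
Percent of single-peak genes whose peak had moved (y axis, with 95% Wilson intervals) in 5 classes of 493 genes ranked by FDR from the weakest to the strongest peak (x axis), by the *Wtap* flox/flox peak (dark) and by the *Wtap*-BKO peak (orange). Both series fell, from 24.1% to 5.48% and from 32.0% to 0.609%.

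Strength and shape differed by direction. In genes that went towards the 5′ end the *Wtap* flox/flox peak had a median log10 FDR of -6.43 and the *Wtap*-BKO peak of -3.50. In genes that went towards the 3′ end the medians were -3.68 and -2.88. Fold enrichment, the ratio of IP over input within 1 genotype, ran the other way for *Wtap* flox/flox peaks, with a median of 4.03 (percentile 28.6 of the list) in genes that went towards the 5′ end and 8.55 (percentile 60.8) in those that went towards the 3′ end. For *Wtap*-BKO peaks the medians were 4.14 and 4.48. Peaks that spanned a splice junction, listed as 2 or more blocks, made up 10.9% (35 of 322) of the moved *Wtap* flox/flox peaks and 29.8% (96, interval 25.1 to 35.0%) of the moved *Wtap*-BKO peaks, whereas kept peaks gave 19.4% and 19.6%. Among *Wtap*-BKO peaks that lay towards the 5′ end, 73 of 210 (34.8%) spanned a junction, against 23 of 112 (20.5%) of those towards the 3′ end. Moved peaks were narrow, with a median of 181 exonic bases for *Wtap* flox/flox and 151 for *Wtap*-BKO against 268 and 240 in kept genes.

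Of the 12 named genes with the strongest weaker peak by FDR, 10 went towards the 5′ end. By fold enrichment their peaks ranked from low to high. The *Wtap* flox/flox peaks of *Cst3* and *Ypel3* stood at the percentiles 0.288 and 1.59, and the *Wtap*-BKO peak of *Cst3* at 89.4. *Cst3*, which encodes the secreted protease inhibitor cystatin C, had its *Wtap* flox/flox peak at chr2:148871810-148871987 (GRCm38.p6, minus strand), 95.4% along the gene, with an IP over input ratio of 1.38 and a log10 FDR of -52.3. Its *Wtap*-BKO peak lay at chr2:148875460-148875633, centred 7 bp upstream of the annotated start, with a ratio of 15.2 and a log10 FDR of -24.3. The peak in *Wtap*-BKO thus covered the first bases of the gene, 3472 bp from the former place. *Eif5*, a translation initiation factor that activates the GTPase of eIF2, was the only one of these 10 whose *Wtap*-BKO peak stayed in the middle of the gene, at 46.9% against 80.5% in *Wtap* flox/flox. *Ypel3*, a small protein of the yippee family, passed from 95.1 to 2.28% of its span, and *Svbp*, the partner of the vasohibin tubulin carboxypeptidases, from 96.3 to 2.40%. *Ssna1*, a microtubule-associated protein, passed from 80.7 to 9.35%, with log10 FDRs of -12 and -14.3.

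The other 5 genes of the 10 all had the centre of the *Wtap* flox/flox peak past the middle of the gene and that of the *Wtap*-BKO peak near its start. *Higd2a*, a factor for respiratory supercomplex assembly, had a *Wtap* flox/flox peak of log10 FDR -114 at 85.2% of its span and a *Wtap*-BKO peak of -21.7 at 2.18%. *Mrps34*, a protein of the small mitochondrial ribosomal subunit, had -154 at 84.8% and -21.1 at 6.07%. Its *Wtap* flox/flox peak shared positions with a peak of *Mapk8ip3* on the opposite strand, and the library kit was not described as keeping strand. *Coa7*, a cytochrome c oxidase assembly factor, had -20.8 at 82.6% and -19.8 at 0.852%. Both *Coa7* peaks were spliced, over 2 and 3 blocks, and their nearest ends lay 364 bp apart. Ranked by FDR within its own list, the peak near the 3′ end stood higher in *Higd2a* (percentile 96.3 against 81.9) and *Mrps34* (97.6 against 81.3), and lower in *Coa7* (74.0 against 80.0). By fold enrichment it stood higher in *Mrps34* (42.8 against 4.49), and lower in *Higd2a* (22.3 against 45.9) and *Coa7* (58.6 against 61.9). *Mrpl34*, of the large mitochondrial ribosomal subunit, passed from 66.1 to 9.19%, and *Chchd1*, a further protein of the small subunit, from 89.5 to 7.87% with log10 FDRs of -10.9 in both lists.

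**Figure D5:**
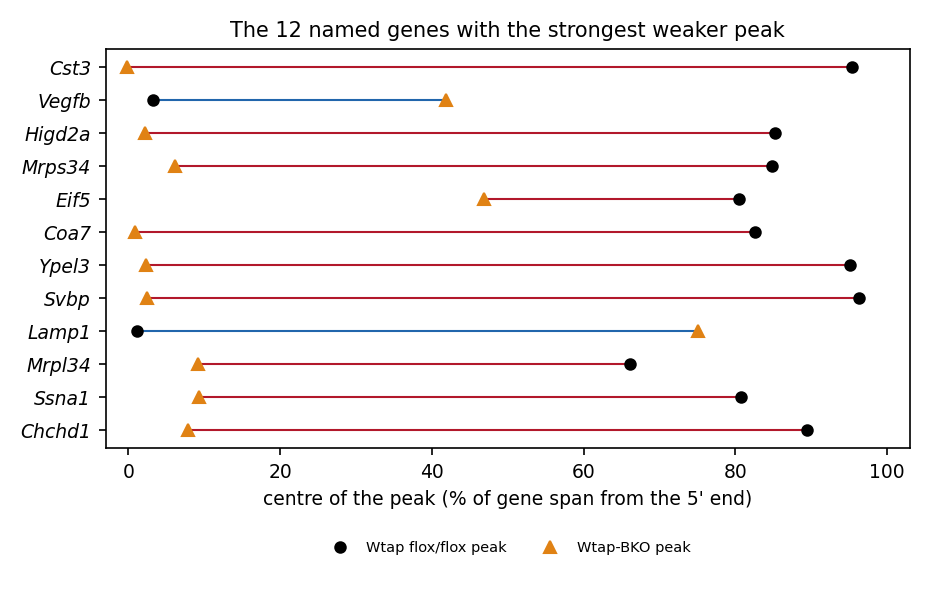
Centre of the *Wtap* flox/flox peak (circle) and of the *Wtap*-BKO peak (triangle) as percent of the gene span from the 5′ end (x axis) for the 12 named genes whose weaker peak was strongest (y axis, in that order). In 10 genes the *Wtap*-BKO peak lay nearer the 5′ end (red lines), and *Vegfb* and *Lamp1* went the other way (blue lines).

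The 2 exceptions left a place near the start. *Vegfb*, a ligand of the VEGF family, had its *Wtap* flox/flox peak at 3.17% of the span (chr19:6987354-6987621, minus strand, log10 FDR -22.3) and its *Wtap*-BKO peak at 41.8% (chr19:6985382-6985590, log10 FDR -33.9). *Lamp1*, a major glycoprotein of the lysosomal membrane, passed from 1.19% (log10 FDR -14.8) to 75.1% (log10 FDR -20.6), over 11806 bp. In both genes the *Wtap*-BKO peak ranked higher by FDR within its own list, at the percentiles 88.8 against 75.5 in *Vegfb* and 80.8 against 66.5 in *Lamp1*. By fold enrichment it ranked lower, at the percentiles 12.3 against 35.2 in *Vegfb* and 0.958 against 14.5 in *Lamp1*.

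The 4 longest shifts among genes with a symbol lay in genes with spans from 333283 bp (*Msra*) to 559239 bp (*Lrba*). *Msra*, a methionine sulfoxide reductase, had its peaks 294098 bp apart, at 99.9% of the span for *Wtap* flox/flox and 4.53% for *Wtap*-BKO. *Fto*, which encodes an m6A and m6Am demethylase, went the opposite way over 256786 bp, from 27.1% (chr8:91409286-91409795, plus strand, log10 FDR -24.3) to 99.5% (chr8:91666582-91666732, log10 FDR -2.39). *Fto* was 1 of 2 single-peak genes in a list of 21 genes of the m6A machinery. The *Wtap*-BKO peak of *Fto* was weak, at the percentile 10.2 of its list by FDR and 4.49 by fold enrichment. *Setbp1*, a nuclear SET-binding protein, moved 229952 bp towards the 3′ end. Its peaks were weak by FDR in both lists (log10 FDR -1.61 and -2.12), with IP over input ratios of 9.74 and 12.1. *Lrba*, a BEACH domain protein of vesicle traffic, moved 198383 bp towards the 5′ end, from 57.8 to 22.3% of its span (-5.96 and -3.55).

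In a list of mitochondrial ribosomal proteins, 5 of 27 single-peak genes moved (18.5%, beside 13.1% over all), and all 5 moved towards the 5′ end. Besides *Mrps34* and *Mrpl34* these were *Mrps11* (99.1 to 2.89% of the span), *Mrpl14* (98.7 to 5.28%, with nearest ends 2739 bp apart) and *Mrpl46*. *Chchd1*, which also moved towards the 5′ end, was not in this list, so the share does not cover the whole class. The new peaks of *Mrps11*, *Mrpl46* and *Mrpl14* were weak by FDR, with log10 FDRs of -3.42, -2.37 and -1.39. *Mrps11* and *Mrpl46* are divergent neighbours, and their *Wtap*-BKO peaks, at chr7:78783327-78783655 on the plus and chr7:78783354-78783502 on the minus strand, covered the same place. The library kit was not described as keeping strand, so the reads behind both peaks cannot be told apart. A list of 44 genes for mitochondrial translation and import held 9 single-peak genes, of which 2 moved. *Tufm*, a mitochondrial elongation factor, passed from 95.7 to 5.17%. *Lrpprc*, which stabilises mitochondrial mRNAs, passed from 0.330 to 99.9% with log10 FDRs of -3.10 and -1.79. The list lacked the import proteins *Timm13* and *Timm10b*, which also moved, by 505 bp towards the 5′ end and 1103 bp towards the 3′ end.

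In a list of respiratory chain subunits and assembly genes, 2 of 32 single-peak genes moved (6.25%, beside 13.1% over all). Assembly genes outside the list, such as *Coa7* and *Higd2a*, moved as well, so this share does not cover the whole class. By the centres, *Ndufs4*, a subunit of complex I, passed from 26.6 to 0.0449% of its span, and *Atp5a1*, the alpha subunit of ATP synthase, from 5.64 to 42.4%. The *Wtap* flox/flox peak of *Ndufs4* was spliced over 2 blocks, and its nearest end lay only 530 bp from the *Wtap*-BKO peak. The *Wtap* flox/flox peaks of both genes were weak by FDR (log10 FDR -3.61 and -3.19), whereas *Atp5a1* had -38.2 in *Wtap*-BKO. By fold enrichment the order was reversed. The *Wtap* flox/flox peaks had ratios of 17.2 and 15.7 (percentiles 88.6 and 85.6), and the *Wtap*-BKO peak of *Atp5a1* had 1.47 (percentile 1.45). The mitochondrial carriers *Slc25a42* and *Slc25a10*, which transport coenzyme A and dicarboxylates, were the 2 that moved of 41 Slc transporters (4.88%, beside 13.1% over all), both towards the 5′ end, by 7425 and 6542 bp.

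Of 5 listed single-peak genes of lipid synthesis and lipolysis, 2 moved, both towards the 5′ end. *Lpin1*, a phosphatidate phosphatase of triglyceride synthesis, had a peak at 97.7% of its span in *Wtap* flox/flox (log10 FDR -65.8) and at 64.9% in *Wtap*-BKO (-5.88). *Srebf2*, a transcription factor of cholesterol synthesis, passed from 97.7 to 39.2% with weak peaks (-3.70 and -2.84). In the lists used, no single-peak gene moved among 4 of the citrate cycle and pyruvate dehydrogenase, 5 of fatty acid oxidation and 3 of insulin, AMPK and mTOR signalling. The same held for 7 of ER folding, 9 Usp deubiquitinases and 11 cytosolic ribosomal proteins. With so few single-peak genes per list, these counts do not separate a list from the 13.1% over all. The lists did not cover each class fully. *Mapkap1*, a subunit of mTOR complex 2, and *Sdf2l1*, of an ER chaperone complex, moved but were not listed.

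Other families moved in both directions or in small numbers. Among Zfp zinc finger genes 6 of 35 moved (17.1%), 3 each way. By the centres, *Zfp395* passed from 94.1 to 0.0919% of its span. Its *Wtap*-BKO peak was spliced over 2 blocks, with nearest ends 20794 bp apart. *Zfp14*, *Zfp248*, *Zfp820* and *Zfp97* shifted by less than 1000 bp between nearest ends. Tmem genes moved in 7 of 30 (23.3%), 6 of them towards the 5′ end. *Tmem135*, linked to mitochondria and peroxisomes, had the longest of these shifts that are named, 194809 bp, with log10 FDRs of -117 and -6.53. *Tmem43* passed from 93.8 to 34.9%, *Tmem8b* from 89.9 to 3.32%, *Tmem159* from 96.6 to 0.697% and *Tmem80* from 89.2 to 1.14%. The *Wtap*-BKO peak of *Tmem80* was spliced over 2 blocks, with nearest ends 4677 bp apart. F-box and BTB adaptors of ubiquitin ligases moved in 3 of 8, namely *Fbxw5* (61.7 to 2.22%), *Klhl5* (98.6 to 0.424%) and *Kctd5*, whose shift was only 118 bp. The *Wtap*-BKO peaks of *Fbxw5* and *Klhl5* were spliced over 2 blocks, with nearest ends 1517 and 36000 bp apart. Of 20 RING and TRIM genes *Trim35* alone moved, by 4978 bp towards the 5′ end. Gm, Rik and unnamed genes moved in 34 of 445 (7.64%), below the 13.1% over all.

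Few shifts came with a listed peak of another gene on the place that was left or gained. On the same strand, another gene's *Wtap*-BKO peak lay on the former place in 1 moved gene, *Gm20422*, where *Zfp866* had a peak. On the opposite strand it lay there in 4 genes, among them *Stub1* with a peak of *Jmjd8* and *Psmb9* with a peak of *Tap1*. A *Wtap* flox/flox peak of the opposite strand lay on the new place in 2 genes, of which *Vrk2* faced *Fancl*. Within a list, 41 moved genes (12.7%, 9.53 to 16.8%) had a peak at the same positions as a peak of the opposite strand, against 225 kept genes (10.5%, 9.27 to 11.9%), with overlapping intervals. Among them were *Mrps34*, *Mrps11*, *Mrpl46*, *Lrba*, *Slc25a10* and *Tmem159*. Without these 41 genes, 184 of 281 went towards the 5′ end.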

How the data were processed

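Peaks of m6A were deposited by the authors as 1 list per genotype, from pooled IP and input samples. The methods name MACS2, while the lists hold spliced blocks on Ensembl genes, so which caller was used stays unsettled here. The submitters' processing notes name fastp 0.19.11, BWA 0.7.12, HOMER 4.9.1 and GRCm38.p6. The deposited fold enrichment is a ratio of IP over input, whose scaling is not given in the sources used here, and the log10 FDR is a deposited score, below 0.05 throughout as FDR.

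Peaks were paired by Ensembl identifier in Python 3.11.15 (numpy 2.4.6, pandas 2.3.3, matplotlib 3.10.9), and pairing was tested on simulated data. Starts were made 1-based, centres are those of exonic bases, and RefSeq gene ends were matched by symbol. Wilson intervals (95%) treat genes as independent. Members and lists were chosen with earlier results of these data known. The 250 bp window, the 100 bp allowance, the FDR steps other than 1e-05, the distance classes, the comparisons with genes outside the rule and the check of the opposite strand were chosen after seeing the data. Named genes were the 12 with a symbol with the strongest weaker peak, the 4 longest and 4 shortest shifts (ties by name), moved members of each list (at most 5) and the 2 strongest each way. The result of 1 list is not reported here.

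No sequence is printed, since no genome was used here.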

Additional observations from a re-analysis of the deposited data

How the results depend on the processing

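The excess of shifts towards the 5′ end kept its direction under every alternative run. Of 49 recomputed values, 32 stayed within the interval of the reported share, or within 1.5 times the reported count or median distance. Some of the 32 could not change, since no moved pair had overlapping spans. These came from whole spans in place of exonic blocks, and from the order of the 5′ or 3′ ends. The count of 322 moved genes became 195 with both lists restricted to an FDR under 1e-05 before peaks per gene were counted, 48 with pairs under 1e-05 and 201 without peaks of 2 or more blocks. Only 48 of those 195 genes were members of the 322. The share moved (13.1%) became 8.41%, 3.73% and 11% under the same settings, 15.2% when a pair counted as moved below 50% of the shorter peak shared, and 9.96% for pairs at least 1000 bp apart. The share towards the 3′ end (34.8%) became 29.1% for pairs at least 1000 bp apart, 25.6% with restricted lists and 10.4% for pairs under 1e-05. The median distance of 5314 bp became 2991 bp under the 50% setting and 10885 bp for pairs at least 1000 bp apart. Near the 3′ end, the shares of 36.0% (*Wtap* flox/flox) and 14% (*Wtap*-BKO) became 22.4% and 9.56% in a window of 500 bp, and 51.8% and 21.7% in 2000 bp, by construction of the window. The 2 settings added after seeing the data changed little: peaks wholly inside the gene gave 34.3% and 14.7%, and leaving out genes that share positions with an opposite-strand peak gave 281 moved genes, 12.8% of single-peak genes, with 34.5% towards the 3′ end and a median distance of 5665 bp. Distances along exons and a motif search were not run. No replicate could be left out, and depth, which limits whether a weak peak is listed, is unknown. No paired analysis was possible because each genotype had 1 pooled sample per fraction.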
